A study of Mus musculus with 12 samples.

Results

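The transcriptome described here is that of granule cell progenitors isolated from wild-type mice at postnatal day 3 (P3), as read in the 3 control libraries of 12 samples in the series. The members were chosen by label: they carry the WT genotype and the P3 time point, and all 31091 genes of the P3 expression table were read in them. The series as a whole was set up to study Znhit3 in the developing cerebellum, and it also holds 3 libraries of P3 progenitors from Znhit3 conditional knockout mice and 6 libraries at postnatal day 6, which were not used here. The labels give neither the strain, the sex, the number of animals behind a library nor the way in which the progenitors were separated from other cerebellar cells, and they do not say whether the 3 controls came from separate animals. The SD over the 3 libraries therefore describes only how far these samples differ, and that spread may be technical.

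Granule cell progenitors are the dividing cells of the external granular layer of the cerebellum, a sheet beneath the meninges that expands after birth. They are specified in the rhombic lip by the proneural factor Atoh1, divide in response to Sonic hedgehog that Purkinje cells secrete, and then leave the cell cycle, extend axons and migrate inward past Purkinje cells and along Bergmann glia to form the internal granular layer. A preparation of this age can therefore hold dividing progenitors and their young, postmitotic daughters, together with cells that lie next to them.

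All levels below are FPKM, the reads counted on a gene per kilobase of its deposited length and per 1000000 counted. The deposited length can exceed the transcript length, and not by the same factor for each gene. For Rps15a it was 6270 bases, where the GENCODE M21 transcript has 640, and for Rplp1 both were 499. Levels, ranks, ratios and shares of different genes therefore hold on this deposited scale only. Multiplied by the deposited gene length, 100% of the values in each library came out as whole reads within a tolerance of 0.02, with totals of 32278245 to 52961445 reads per library. 3 reads on a gene of 1 kb correspond to 0.0566 to 0.0929 FPKM, which sets the floor for a gene of that length and covers counting error only. The 3 libraries were distinct and alike: over 13421 genes averaging 1 FPKM or more the pairwise Pearson correlation of log2(FPKM + 1) was 0.993 to 0.994 across genes, and no pair had counts so close that it could be one library deposited more than once (chi-square per degree of freedom 7.32 to 9.22). Many of the shortest transcripts were higher in control 3 than in control 1, and values for them are given below with the ribosomal genes.

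The labelled cell type was checked against 6 granule progenitor markers, and all 6 were abundant in every library. Zic1, a zinc finger factor of the cerebellar granule lineage, was at 246, 248 and 271 FPKM in controls 1, 2 and 3, and Barhl1, a homeodomain factor of the same lineage, was at 103, 113 and 117 FPKM. Mycn, which drives progenitor division, was at 76.8, 80.6 and 83.4 FPKM. Atoh1 was at 35.4, 35.9 and 41.3 FPKM and Gli1, a transcription factor and target of Sonic hedgehog signalling, at 35.4, 36.3 and 35.6 FPKM. The highest of the 6 was Mfap4, a secreted extracellular matrix protein, at 321, 329.6 and 331 FPKM. In rank among all genes these markers ran from 83 for Mfap4 to 1475 for Gli1, so that the lowest of them stood at the 95.3 percentile of the table. In bulk RNA, fewer cells of a type and less RNA per cell cannot be told apart, so such levels give no share of cells.

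**Figure D1:**
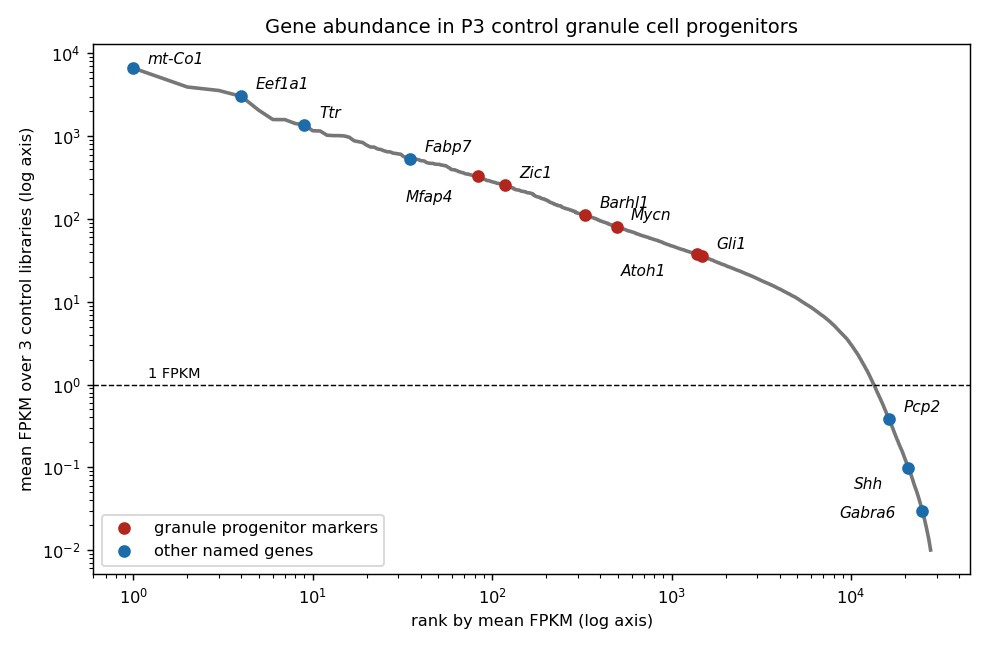
Mean FPKM of each gene over the 3 P3 control libraries against its rank, both on log axes, with the 6 granule progenitor markers in red, other named genes in blue and a dashed line at 1 FPKM; genes with a mean under 0.01 FPKM are not drawn. The markers lie between rank 83 and rank 1475, below mt-Co1, Eef1a1, Ttr and Fabp7, whereas Pcp2, Shh and Gabra6 fall under the dashed line.

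A total of 12868 genes (41.4% of the table) reached 1 FPKM in all 3 libraries, of which 11696 were protein-coding (66.3% of the protein-coding genes listed). Expression was concentrated in few of them: 5147 genes reached 10 FPKM in every library, 354 reached 100 FPKM and 11 reached 1000 FPKM. Among protein-coding genes at 1 FPKM or more the median level was 8.46 FPKM, with quartiles at 3.82 and 18.9 FPKM. The 10 most abundant genes held 9.31 ± 0.50% of the summed FPKM (SD, n = 3), the 100 most abundant 24.8 ± 0.56% and the 1000 most abundant 54.8 ± 0.43%.

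The top of the rank order was made of mitochondrial, translation, cytoskeletal and chromatin genes. Of the 12 highest genes 7 are encoded by the mitochondrial genome, led by mt-Co1, a subunit of cytochrome c oxidase, at 6968, 6042 and 6954 FPKM. Eef1a1, which delivers aminoacyl-tRNA to the ribosome, followed at rank 4 with 3098, 3195 and 2796 FPKM. Ptma, the small acidic nuclear protein prothymosin alpha, was at 1893, 2223 and 2070 FPKM, and Tuba1a, the main alpha tubulin of newborn neurons, at 1561, 1649 and 1547 FPKM. The actin-binding thymosins Tmsb4x and Tmsb10, with means of 1156 and 971 FPKM, the chaperone Hsp90ab1 at 1007 FPKM, the beta tubulin Tubb5 at 858 FPKM, the microtubule regulator Stmn1 at 666 FPKM, the histone variant genes H2az1 at 614 FPKM and H3f3b at 605 FPKM, and Marcksl1 at 740.3 FPKM lay within the top 31. Ttr, the thyroid hormone carrier made by choroid plexus, stood at rank 9 and is described with the other cell types.

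Cytosolic ribosomal protein genes took a larger share of the transcriptome than any other nuclear class that was summed. Of 84 such genes 81 reached 1 FPKM, 30 were among the 100 most abundant genes of the table, and together they held 7.85 ± 0.25% of the summed FPKM (SD, n = 3). Their median was 224 FPKM, with Rps3a1 the highest at 1017 ± 101 FPKM and Rpl3l, a variant of striated muscle, the lowest at 0.030 FPKM. Translation factors held 2.47 ± 0.13%, nuclear genes of the respiratory chain and ATP synthase 1.85 ± 0.08%, tubulins 1.52 ± 0.04%, heat shock proteins and chaperones 1.34 ± 0.05% and heterogeneous nuclear ribonucleoproteins 1.07 ± 0.01%. All 20 of the last class were at 1 FPKM or more, from Hnrnpll at 15.4 FPKM to Hnrnpa1 at 519.8 FPKM. At the other end, none of 108 olfactory receptor genes, 35 vomeronasal receptor genes and 12 Hox genes in the table reached 1 FPKM. Of 76 histone genes 25 did, beside 66.3% of all protein-coding genes. The libraries were made from RNA selected by its poly(A) tail, which most histone messages of dividing cells lack. The part of this selection in the count was not tested.

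Some ribosomal protein genes differed between the 3 libraries far more than others. Rpl38, a short ribosomal protein message, was at 151, 175 and 294 FPKM in controls 1, 2 and 3, and Rps29 was at 183, 218 and 310.0 FPKM. Rpl41, which encodes the shortest ribosomal protein, was at 409, 476 and 629 FPKM, whereas the longer Rpl4 was at 706, 733 and 668 FPKM. Control 3 was the highest library for the first 3 of these, which were chosen after their values were seen, and the lowest for Rpl4. By transcript length, control 3 was the highest library for 6 of 6 ribosomal genes under 400 bases, 9 of 17 at 400 to under 600, 14 of 31 at 600 to under 1000 and 5 of 22 at 1000 or more. Length did not order all of them: Rps14, at 597 bases, was lowest in control 3 with 262, 285 and 214 FPKM, and Rpl35, at 946 bases, was highest there with 79.3, 84.2 and 137 FPKM. Over 76 protein-coding genes of at least 20 FPKM with a transcript of 400 to under 600 bases in GENCODE M21, the median log2 ratio of control 3 to the mean of the others was 0.17, and 72.4% of them were highest in control 3. The same median was 0.04 for 250 genes of 600 to under 1000 bases and 0.00 for 806 genes of 1000 to under 2000 bases. Below 400 bases only 9 genes were left, all of them highest in control 3. What set the libraries apart was not tested.

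**Figure D2:**
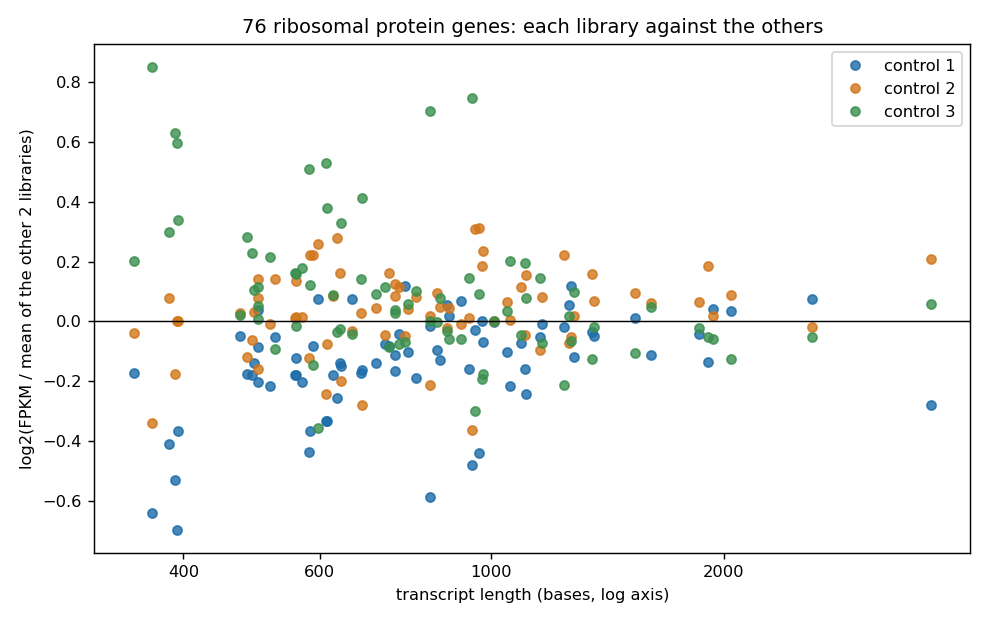
Each point is 1 of 76 cytosolic ribosomal protein genes in 1 control library, with transcript length in bases on a log axis and the log2 ratio of its FPKM to the mean of the other 2 libraries. Among the shortest transcripts control 3 (green) lies above 0 and control 1 (blue) below it, as for Rpl38 at 151, 175 and 294 FPKM, while genes such as Rpl35 at 946 bases stand as far apart.

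The Biotype classes of the table differed in how far they were expressed. Protein-coding genes held 95.1 ± 0.07% of the summed FPKM and 98.1 ± 0.04% of the reads (SD, n = 3). Processed pseudogenes held 1.66 ± 0.04% of FPKM but 0.29% of reads, and 331 of 3179 of them (10.4%) reached 1 FPKM. Whether their reads came from the genes they copy was not tested. Long non-coding RNAs held 1.31 ± 0.03% of FPKM, and 543 of 6585 (8.25%) reached 1 FPKM, with a median of 2.37 FPKM among those. Unprocessed pseudogenes came to 0.64 ± 0.01% of FPKM with only 24 of 275 at 1 FPKM or more. Immunoglobulin and T cell receptor V segment genes, which are joined and transcribed in lymphocytes, gave 0 of 51 and 0 of 18 at 1 FPKM.

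Nearly all of the unprocessed pseudogene signal lay in rows whose sequence repeats the mitochondrial genome. The mitochondrial genes were compared with 1245 transcripts of nuclear rows that are not protein-coding, of any such Biotype, and average 1 FPKM or more. Of these 9 matched, all unprocessed pseudogenes, and they held 94.8% of that class's FPKM. The highest was Gm10925 on chromosome 1, at 540, 506 and 528 FPKM, which repeats mt-Atp6, a subunit of ATP synthase, over 678 bases without a mismatch. The mitochondrial gene itself was listed lower, at 211, 174 and 263 FPKM. Gm28661 (385 ± 13.7 FPKM) repeats mt-Co2 (318 ± 24.4 FPKM) over 681 bases, and Gm28438 (67.8 ± 10.8 FPKM) repeats mt-Nd3 (38.4 ± 2.98 FPKM) over 345 bases with 1 mismatch. The first 120 bases of 2 such pairs, from GENCODE M21 (GRCm38), are shown because they are what a read would have to tell apart, and capitals mark bases that differ within a pair.
mt-Atp6: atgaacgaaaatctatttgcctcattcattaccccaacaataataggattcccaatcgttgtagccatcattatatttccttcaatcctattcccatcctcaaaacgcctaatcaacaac
Gm10925: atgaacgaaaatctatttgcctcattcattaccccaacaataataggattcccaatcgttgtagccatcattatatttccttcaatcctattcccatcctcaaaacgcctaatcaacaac
mt-Nd3: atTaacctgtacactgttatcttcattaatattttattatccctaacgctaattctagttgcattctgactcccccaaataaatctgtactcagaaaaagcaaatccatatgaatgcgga
Gm28438: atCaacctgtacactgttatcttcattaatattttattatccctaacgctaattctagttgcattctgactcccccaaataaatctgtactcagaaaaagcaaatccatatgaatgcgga
No base of the first pair and 1 base of the second are in capitals, so a read inside these stretches could come from either copy. Levels of mt-Atp6, mt-Co2, mt-Co3, mt-Nd3, mt-Nd4l and their chromosome 1 copies are thus uncertain one by one. Parts of mt-Nd4 (876 of 1378 bases, without a mismatch) and of mt-Co1 (483 of 1545 bases, with 1 mismatch) are repeated in the same way. Among mitochondrial protein-coding genes, no such copy was found for mt-Nd1 at 3932 FPKM, mt-Cytb at 3565 FPKM and mt-Nd2 at 1590.1 FPKM. Nor was one found for mt-Nd5 at 1422 FPKM, mt-Nd6 at 1028 FPKM and mt-Atp8 at 37.2 ± 25.2 FPKM, or 22.8 FPKM without control 3. Sequence outside the 1245 transcripts was not searched, so this does not show that these genes lack a nuclear copy. The mitochondrial chromosome as a whole held 7.78%, 6.60% and 8.14% of the summed FPKM in controls 1, 2 and 3, lowest in control 2.

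Transcription factor genes named the lineage more directly than the top of the table. Of 440 genes that belong to 29 listed factor families 277 reached 1 FPKM in all libraries, 117 reached 10 FPKM and 83 had a mean under 0.1 FPKM, and together they held 1.73 ± 0.05% of the summed FPKM. For comparison, 66.3% of all protein-coding genes reached 1 FPKM in all libraries and 28.3% reached 10 FPKM. The 5 highest were Zic1, Neurod1, Insm1, Zic2 and Barhl1, and the 10 highest held 26.5 ± 0.52% of all factor FPKM. Neurod1, a basic helix-loop-helix factor of granule cell differentiation and survival, was at 205, 195 and 221 FPKM, and Insm1, a zinc finger factor of neuronal and endocrine progenitors, at 161, 177 and 191 FPKM. Zic2 was at 161, 154 and 186 FPKM.

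Ranges of neighbours in this order were mostly apart near the top and mostly overlapped lower down. Of the 9 neighbouring pairs among the 10 highest factors, 6 had ranges over the 3 libraries that did not overlap, and of the 29 pairs among the 30 highest only 7 did. Ranges can overlap while the order holds within each library, as for Mycn and Nfix, at factor ranks 7 and 8 in all 3. Zic1 lay above Neurod1 and Neurod1 above Insm1 in every library, while Insm1 and Zic2 overlapped. The next were Atf4, a leucine zipper factor of the amino acid response, at 96.5 ± 6.45 FPKM, Mycn, and Nfix, a nuclear factor I protein of late progenitors, at 73.4 ± 5.39 FPKM. Hes6 (65.4 ± 4.41 FPKM), Nhlh1 (63.9 ± 2.91 FPKM) and the Atoh1 partner Tcf3 (63.0 ± 3.03 FPKM) followed within each other's spread. Control 3 held the highest value for 23 of these 30 genes and control 1 the lowest for 19, so that small differences between libraries in this class share a direction.

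**Figure D3:**
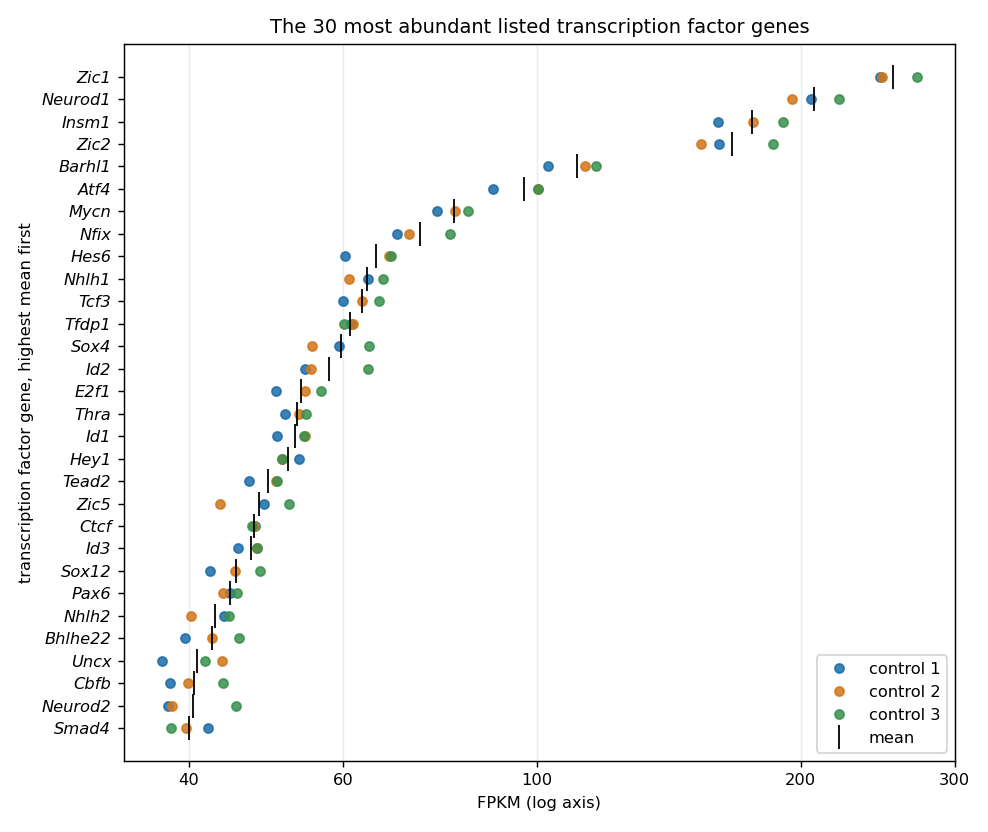
FPKM on a log axis of the 30 most abundant listed transcription factor genes in each of the 3 P3 control libraries (coloured points) with their mean (black bar). Zic1, at 246 to 271 FPKM, lies to the right of all others, and below Barhl1 the ranges of most neighbours overlap.

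Of the 51 transcription factors listed for granule progenitors and their rhombic lip relatives, 44 reached 1 FPKM and 37 reached 10 FPKM in every library, with a median of 24.5 FPKM. Beyond the factors above these included Hey1, a hairy-related repressor, at 51.9 ± 1.39 FPKM, Pax6, a paired factor of the external granular layer, at 44.6 ± 0.82 FPKM, and Nhlh2 at 42.9 ± 2.31 FPKM. En2 and En1, the engrailed factors of the midbrain and anterior hindbrain, were at 27.1 ± 2.31 and 9.91 ± 1.61 FPKM. The 7 that missed 1 FPKM were Lmx1a, Pou4f1, Pou3f1, Lmx1b, Meis2, Lhx9 and Olig3, the last at 0.92 FPKM in control 1 and above 1 FPKM in the others. Lmx1a and Lhx9 mark the roof plate and the early rhombic lip derivatives of the nuclei, and they were at 0.61 ± 0.17 and 0.11 ± 0.04 FPKM.

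Factors of other regions of the neural tube ranged from 0 reads to clear expression. Of 25 genes matched from the list for regions outside the cerebellum, 9 reached 1 FPKM and 12 had a mean under 0.1 FPKM. Among all protein-coding genes 66.3% reached 1 FPKM. All of the Hox genes listed, which pattern the hindbrain and cord behind the cerebellum, had a mean under 0.1 FPKM, and Hoxb2 had 0 reads in each library, where 3 reads would have given 0.0162 to 0.0266 FPKM. The forebrain factors Dlx1, Dlx2, Nkx2-1 and Six3 were each under 0.1 FPKM on average. The 4 at 10 FPKM or more were Irx1 (24.4 ± 1.68 FPKM), Otx2 (19.4 ± 0.58 FPKM), Pax3 (12.1 ± 0.81 FPKM) and Irx2 (11.7 ± 0.63 FPKM). The other 5 at 1 FPKM or more were Fgf8, Irx5, Otx1, Irx3 and Egr2, with means from 1.82 to 4.23 FPKM. Otx2 is known from the midbrain, from granule progenitors of the posterior cerebellum and from choroid plexus, and Gbx2, which abuts it at the border of midbrain and hindbrain, was at 0.68 ± 0.03 FPKM.

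Receptors and effectors of Sonic hedgehog signalling were expressed and the ligand was near the floor. Of 23 pathway genes listed 19 reached 1 FPKM in every library and 12 reached 10 FPKM, beside 66.3% and 28.3% of all protein-coding genes. Shh itself was at 0.06, 0.08 and 0.16 FPKM. The receptor Ptch1, which holds the pathway off until it binds ligand, was at 20.97, 20.4 and 20.5 FPKM, and Smo, the transducer that Ptch1 restrains, at 29.2, 29.3 and 30.9 FPKM. The level of Shh did not reach 1 FPKM in any library, and the receptors passed 20 FPKM in all of them.

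Among coreceptors Boc, an immunoglobulin superfamily protein that binds the ligand, was at 55.3 ± 0.34 FPKM and Gas1 at 23.8 ± 2.34 FPKM, whereas the Boc relative Cdon was at 1.07 ± 0.12 FPKM. The ratio of Boc to Cdon was 52.2 ± 5.07 over the libraries. Of the Gli factors at the end of the pathway, the activator Gli1 held 57.1 ± 1.13% of the family's FPKM, Gli2 37.7 ± 1.00% and Gli3, which acts mostly as a repressor, 5.15 ± 0.49%. The cytoplasmic restraint Sufu was at 19.8 ± 0.71 FPKM and the kinesin Kif7 at 2.72 ± 0.23 FPKM. Of the 21 listed targets of the pathway 20 reached 1 FPKM, among them Sfrp1 (81.8 ± 2.30 FPKM), Mycn, Ccnd2 and Ccnd1, with Hhip, a target that binds the ligand at the surface, at 2.53 ± 0.30 FPKM.

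Genes of the cell cycle were expressed throughout. All 36 genes listed for replication and S phase reached 1 FPKM in every library and 27 reached 10 FPKM, and all 32 genes listed for mitosis and G2/M did so, 29 of them at 10 FPKM. The highest of the first list was Pcna, the sliding clamp of DNA polymerase, at 122, 135 and 115 FPKM, followed by the helicase subunits Mcm7 (85.1 ± 2.32 FPKM) and Mcm6 (83.3 ± 3.52 FPKM) and the ribonucleotide reductase subunit Rrm2 (76.1 ± 3.06 FPKM). Fen1, the flap endonuclease of the same fork, was listed at only 1.43, 1.51 and 1.93 FPKM. In the mitotic list Cdc20, the activator of the anaphase-promoting complex, was at 101, 101 and 99.4 FPKM, Ube2c at 96.8 ± 9.57 FPKM, Ccnb2 at 82.4 ± 2.13 FPKM and Mki67 at 73.3 ± 2.39 FPKM. The lowest of that list was Anln at 6.81 ± 0.40 FPKM.

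The promoters of these 2 lists were searched for motifs known from cell cycle genes. A CCAAT box, the site of the factor NF-Y, was searched on both strands in the 300 bases from 250 before to 50 after each start in RefSeq (GRCm38.p6). A gene with several starts was counted once, with the motif in any of them. The box was found for 21 of the 26 genes matched for the mitotic list (80.8%) and 16 of the 29 matched for the replication list (55.2%). It was found for 43.4% of 3860 matched genes at 10 to under 100 FPKM and 49.5% of 285 at 100 FPKM or more. Other lists ranged from 31.25% for ribosomal protein genes to 64.9% for granule progenitor transcription factors, the latter above the replication list. Fewer than 80% of the genes of each of these other lists were matched. TTTGGCGC, the core letters of an E2F site, was found on either strand for 6 of the 29 replication genes (20.7%), 0 of the 26 mitotic ones and 1.24% of the 3860. These shares describe sequence only, and neither their difference nor binding was tested. The 250 bases before the start of Ccnb2 and Cdc20 from the mitotic list and of Mcm6 and Mcm5 from the replication list are shown as chosen examples. CCAAT and TTTGGCGC, in either orientation, are in capitals. CCAAT recurs in each, while TTTGGCGC is in Mcm6 and Mcm5 only. Rrm2, Dut and Uhrf1 of the replication list held 0 copies of TTTGGCGC in this window, and Dut also 0 of CCAAT.
Ccnb2, chr9:70421555-70421804, minus strand: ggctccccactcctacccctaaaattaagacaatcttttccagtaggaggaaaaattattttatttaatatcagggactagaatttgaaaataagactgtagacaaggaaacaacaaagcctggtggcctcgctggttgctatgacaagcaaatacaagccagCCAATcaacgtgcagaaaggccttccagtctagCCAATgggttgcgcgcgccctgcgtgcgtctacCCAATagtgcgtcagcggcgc
Cdc20, chr4:118437344-118437593, minus strand: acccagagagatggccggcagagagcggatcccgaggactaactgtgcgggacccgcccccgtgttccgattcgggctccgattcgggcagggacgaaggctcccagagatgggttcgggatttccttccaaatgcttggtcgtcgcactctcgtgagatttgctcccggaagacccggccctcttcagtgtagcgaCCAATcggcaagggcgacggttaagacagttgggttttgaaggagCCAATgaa
Mcm6, chr1:128359706-128359955, minus strand: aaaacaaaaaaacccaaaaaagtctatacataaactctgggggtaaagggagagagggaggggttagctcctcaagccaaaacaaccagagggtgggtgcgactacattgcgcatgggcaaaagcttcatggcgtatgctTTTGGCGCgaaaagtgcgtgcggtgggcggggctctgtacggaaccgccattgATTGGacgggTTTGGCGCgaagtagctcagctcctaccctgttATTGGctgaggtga
Mcm5, chr8:75109259-75109508, plus strand: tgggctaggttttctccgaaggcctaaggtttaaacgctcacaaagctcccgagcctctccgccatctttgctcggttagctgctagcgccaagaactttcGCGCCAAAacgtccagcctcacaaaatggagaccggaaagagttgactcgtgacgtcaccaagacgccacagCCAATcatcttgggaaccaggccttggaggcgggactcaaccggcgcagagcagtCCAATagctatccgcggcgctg
Ccnb2 carries 3 copies of the CCAAT box in this window and Cdc20 carries 2, all in the orientation CCAAT. Mcm6 carries 2 copies in the orientation ATTGG beside 2 of TTTGGCGC, and Mcm5 carries 2 of CCAAT beside 1 of GCGCCAAA, the reverse complement of TTTGGCGC.

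Promoters of genes at higher levels were mostly rich in CpG. The CpG ratio, observed over that from base composition, was taken as the highest over the starts of a gene. It was above 0.6 for 86.3% of the 3860 genes matched at 10 to under 100 FPKM (80.7% of such genes matched). At 100 FPKM or more it was above 0.6 for 86.7% of the 285 genes matched (80.3% matched). For genes under 10 FPKM fewer than 80% had a promoter in the table, so the same check is void for them.

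Genes of the step after division were expressed beside those of division. All 36 genes listed for cell cycle exit and young granule neurons reached 1 FPKM in every library and 25 reached 10 FPKM. Tubb3, a neuronal beta tubulin, was at 329.7, 327 and 339 FPKM, and Gap43, a growth cone protein, at 239, 214 and 223 FPKM. The stathmin Stmn3 was at 208 ± 18.6 FPKM, Plxnb2, a semaphorin receptor of the external granular layer, at 174 ± 6.79 FPKM, Cntn2 (TAG1), the adhesion molecule of granule cells that have just left the cycle, at 49.7 ± 1.68 FPKM, and the microtubule protein Dcx at 37.1 ± 2.28 FPKM. The cycle inhibitor Cdkn1b was at 53.6, 49.2 and 60.1 FPKM. The summed level of this list was 1848 ± 34.7 FPKM, beside 1186 ± 34.6 FPKM for the replication list and 1179.9 ± 14.5 FPKM for the mitotic list, which hold other numbers of genes.

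Genes of mature granule neurons split into those present and those at the floor. Of 24 listed 19 reached 1 FPKM and 6 reached 10 FPKM, beside 66.3% and 28.3% of all protein-coding genes. Cbln1, a secreted synaptic organizer, was at 83.8, 87.3 and 91.8 FPKM, and the release proteins Cplx2 and Rab3a were at 56.1 ± 2.02 and 39.5 ± 1.96 FPKM. In contrast Gabra6, the GABA-A receptor subunit that defines mature granule cells, was at 0.06, 0 and 0.03 FPKM, from 6, 0 and 4 reads, and Gabrd at 0.03 ± 0.03 FPKM. Cbln3, a partner of Cbln1 in mature granule cells, was at 0.66 ± 0.08 FPKM, and the vesicular glutamate transporter Slc17a7 at 3.99 ± 0.65 FPKM. Grin2c, the NMDA receptor subunit known from mature granule cells, led its family with 57.0 ± 1.55% of the FPKM but only 2.62 ± 0.14 FPKM, and by reads Grin2b led with 54.9%.

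Of 42 genes listed for migration and guidance 36 reached 1 FPKM, beside 66.3% of all protein-coding genes. The chemokine receptor Cxcr4, which holds progenitors near the meninges, was at 66.2, 62.3 and 65.5 FPKM, and its ligand Cxcl12, which meningeal cells secrete, at 14.2, 14.6 and 15.7 FPKM. The netrin receptors Neo1 and Dcc were at 53.6 ± 1.45 and 25.6 ± 1.04 FPKM and Unc5c at 11.1 ± 0.67 FPKM, with the ligand Ntn1 at 18.6 ± 0.48 FPKM. Robo2 and Robo1 were at 8.12 ± 0.09 and 5.02 ± 0.09 FPKM, and their ligands Slit1, Slit2 and Slit3 were each under 1 FPKM on average. Bdnf was at 0.05 ± 0.02 FPKM and its receptor Ntrk2 at 10.1 ± 0.45 FPKM. Dcc was also the highest of 222 protein-coding genes that span 500 kb or more, of which 121 reached 1 FPKM with a median of 2.73 FPKM.

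Paralog usage was summarised as the share of a family's summed FPKM taken by each member. In 44 of 52 families 1 member held more than 50%, in 15 more than 75% and in 6 more than 90%. In a family of 2 members, such as lactate dehydrogenases, 1 member always holds at least 50%. The first count was thus partly fixed in advance. The 6 include the LIN28 proteins, whose leader Lin28b was at only 0.57 FPKM. The leading member was the same in all 3 libraries in 50 families. The exceptions were lactate dehydrogenases, with Ldha at 50.6 ± 1.07% and Ldhb at 49.4 ± 1.07%, and INK4 inhibitors, with Cdkn2d at 49.8 ± 2.53% and Cdkn2c at 49.1 ± 2.55%. Counting reads in place of FPKM, which drops the division by gene length, the same member led in 45 families. The 7 in which it did not were class I E proteins, NMDA receptor NR2 subunits, INK4 inhibitors, NFI factors, HMGB proteins, SOXC factors and Notch receptors.

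**Figure D4:**
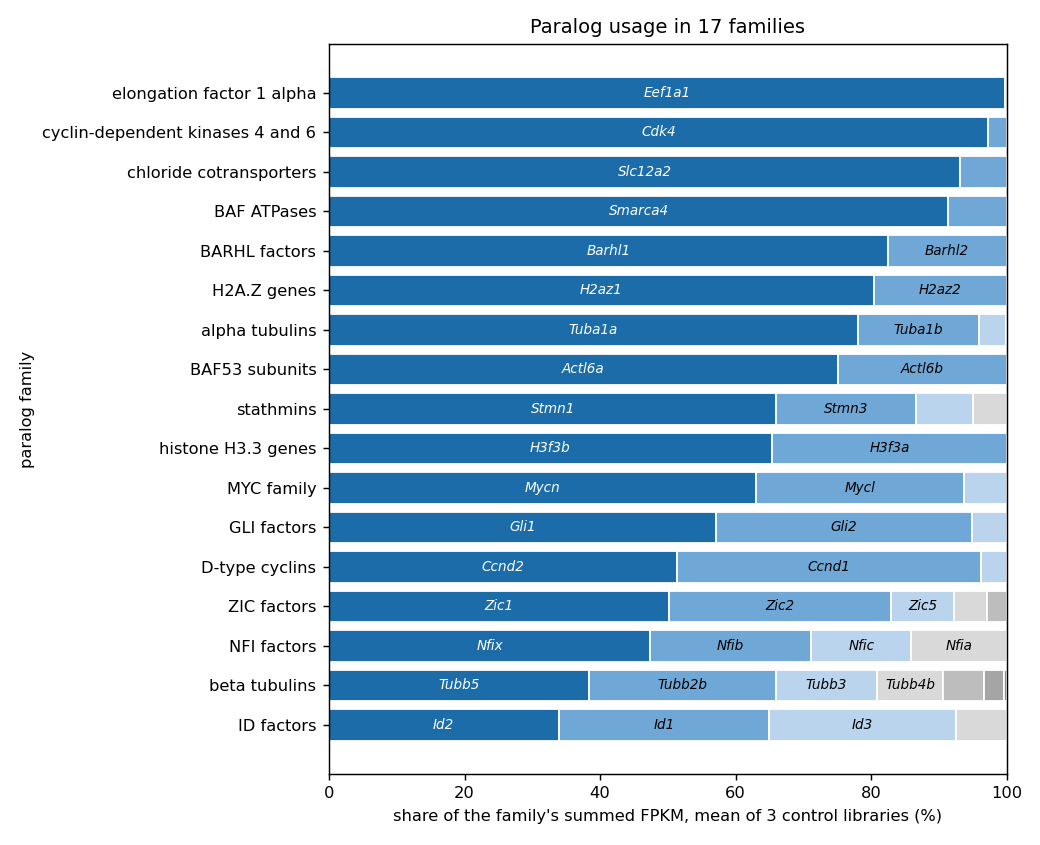
Share of a family's summed FPKM held by each member, as the mean of the 3 P3 control libraries, for 17 of the 52 families, with members ordered from left to right and those at 9% or more named. Eef1a1, Cdk4, Slc12a2 and Smarca4 fill more than 90% of their bars, while no member of the ID factors holds more than 33.9%.

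In several families, picked from the 52 because their usage is known to change as neurons mature, the leading member was the one known from progenitors. Smarca4, an ATPase of BAF chromatin remodelling complexes, held 91.4 ± 0.21% against its relative Smarca2. Actl6a, the BAF53 subunit of dividing progenitors, held 75.1 ± 1.71% against the neuronal Actl6b, which was at 10.9, 10.1 and 11.9 FPKM. The splicing repressor Ptbp1 held 70.2 ± 1.06% and Ptbp2, which replaces it in neurons, 21.7 ± 0.77%. Slc12a2, which loads chloride into immature neurons, was at 9.58 FPKM on average and held 93.2 ± 0.57% against the extruder Slc12a5 at 0.63, 0.74 and 0.74 FPKM. Top2a, the topoisomerase of dividing cells, held 73.1 ± 0.98% against Top2b. Not every family went this way. Grin2c, known from mature granule cells, led the NR2 subunits by FPKM with 57.0 ± 1.55%, though not by reads. Among the ELAV proteins Elavl3 led with 54.4 ± 0.80% and Elavl1 was the lowest. Apart from these families, Cdk4 held 97.3 ± 0.18% against Cdk6.

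Growth and lineage families included even and uneven ones. Barhl1 held 82.4% of the BARHL factors, Neurod1 78.0% of the NeuroD factors and En2 73.3% of the engrailed factors. The D-type cyclins that partner Cdk4 were split between Ccnd2, at 72.1, 69.0 and 70.4 FPKM, and Ccnd1, at 62.4, 61.0 and 61.7 FPKM, with Ccnd3 at 5.19 ± 0.16 FPKM. Ccnd2 lay above Ccnd1 in every library, by less than the difference of either from Ccnd3. Mycn held 63.0 ± 1.30% of the MYC family, Mycl 30.6 ± 1.15% and Myc 6.39 ± 0.15%. Among the Zic genes, which are known from the dorsal neural tube, Zic1 held 50.1 ± 1.09%, Zic2 32.7 ± 0.97%, Zic5 9.43 ± 0.42% and Zic4 4.82 ± 0.31%. Id2, Id1 and Id3, inhibitors of helix-loop-helix factors, stood at 33.9 ± 1.52%, 31.0 ± 1.05% and 27.6 ± 0.95%.

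Where paralogs encode the same or nearly the same protein, their coding bases bear on whether their levels can be told apart. Untranslated bases and pseudogene copies can also take reads, and they were not compared. The 2 histone H3.3 genes, H3f3b and H3f3a, encode 1 protein, the replacement histone that is put into chromatin outside replication. H3f3b had a mean of 605 FPKM and held 65.3 ± 1.10% of the pair, and H3f3a had a mean of 321 FPKM. Their coding sequences of 411 bases were 76.9% identical, with 95 differing bases and a longest shared run of 23 bases, far under the length of a read. The first 120 coding bases (GENCODE M21, GRCm38) are shown with the differing positions in capitals, since within this stretch these assign a read to 1 of them.
H3f3b: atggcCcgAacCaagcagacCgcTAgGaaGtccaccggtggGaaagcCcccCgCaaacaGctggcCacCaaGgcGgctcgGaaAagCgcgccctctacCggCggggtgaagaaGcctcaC
H3f3a: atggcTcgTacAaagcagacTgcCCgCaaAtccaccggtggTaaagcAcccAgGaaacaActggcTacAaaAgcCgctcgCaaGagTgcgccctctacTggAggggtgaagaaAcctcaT
Of these 120 positions 24 differ. Actg1 and Actb, the cytoplasmic actins, were 88.7% identical with a longest shared run of 62 bases, and Actg1 held 58.5 ± 0.71%.

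Tubulins were not distinct in that way. Tuba1a held 78.0 ± 0.54% of alpha tubulin FPKM, Tuba1b 17.9 ± 0.60% and Tuba1c 4.08 ± 0.22%. The coding sequences of Tuba1a and Tuba1b were 98.3% identical, differed at 23 of 1356 bases and shared a run of 281 bases, longer than 1 read, so reads from that run could be counted on either gene. Tuba1c shared runs of 446 bases with Tuba1a and 468 bases with Tuba1b, and the beta tubulins Tubb2a and Tubb2b a run of 551 bases. Shares among these genes are therefore uncertain, and the haemoglobin pair Hba-a1 and Hba-a2, near-identical copies of alpha globin, was at 689.9 ± 96.3 and 32.6 ± 11.9 FPKM with the same limit.

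Genes of other cell types were widely detected. Of 222 different genes in 12 lists of markers for cells that could lie in or near the preparation, 182 (82.0%) reached 1 FPKM in every library and 86 reached 10 FPKM. Of all protein-coding genes 66.3% and 28.3% reached these levels. Some of these genes are also made by progenitors, so the lists count messages and not cells, and the part of each cell type in the levels above was not tested. None of the 222 genes was at 0 in every library, and 11 had a mean under 0.1 FPKM. The summed level of the erythroid list had the widest spread for its size, with 1549, 1408 and 1281 FPKM in controls 1, 2 and 3.

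Astroglia and Bergmann glia gave the largest sum, 2226 to 2249 FPKM over the libraries (0.79% of all FPKM), with 25 of 25 genes at 1 FPKM or more and 22 at 10 FPKM. Fabp7, the fatty acid binding protein of radial and Bergmann glia, was at 527, 553 and 519 FPKM, which was 14.3 ± 1.51 times the level of Atoh1. Sparcl1, at 484, 450 and 448 FPKM, and Apoe, at 329, 347 and 369 FPKM, followed, and the glutamate transporter Slc1a3 was at 132 ± 3.38 FPKM. Gdf10, a Bergmann glia factor, was at 68.3 ± 3.02 FPKM, the water channel Aqp4 at 34.5 ± 2.56 FPKM and Gfap at 13.6 ± 0.57 FPKM. Genes known from Bergmann glia and general astroglial genes were thus both present, and the lowest of the list, Fgfr3, was at 1.497 FPKM.

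Choroid plexus and ependyma summed to 1435 to 1523 FPKM, but 91.8% of that was Ttr alone. Ttr was at 1395, 1401 and 1314 FPKM, at rank 9 among all genes, and the next gene of the list, Enpp2, was at 35.5, 33.0 and 32.3 FPKM. The ratio of Ttr to Enpp2 was 40.8 ± 1.57. Other choroid plexus genes were lower still, with Aqp1 at 7.37 ± 0.27 FPKM, Folr1 at 6.37 ± 0.20 FPKM, Kcne2 at 5.20 ± 0.85 FPKM, Kl at 0.47 ± 0.03 FPKM and Prlr at 0.04 ± 0.02 FPKM. In all 20 of 25 genes reached 1 FPKM and 3 reached 10 FPKM, and Foxj1, the regulator of motile cilia, was at 10.7 ± 1.23 FPKM.

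Erythroid messages were likewise dominated by few genes, with 91.9% of the sum in Hba-a1, Hbb-bs and Hbb-bt. Hba-a1 was at 787, 688 and 595 FPKM and Hbb-bs at 560, 527 and 494 FPKM, both highest in control 1 and lowest in control 3, whereas the near copy Hba-a2 was at 23.2, 28.5 and 46.0 FPKM, in the opposite order. Of the 17 listed genes that matched, 9 reached 1 FPKM. Alas2, the erythroid enzyme of haem synthesis, was at 8.54 ± 0.56 FPKM, while Gata1 and Klf1, the factors of erythroid precursors, were at 0.02 ± 0.02 and 0.25 ± 0.04 FPKM and the embryonic globin Hbb-y at 0.05 ± 0.05 FPKM. The adult globins were thus far above the factors of their precursors.

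The meninges and fibroblast list summed to 539 to 571 FPKM with 19 of 19 genes at 1 FPKM or more, led by Ptgds (prostaglandin D synthase) at 240, 256 and 262 FPKM, Igfbp2 at 93.2 ± 2.27 FPKM and Col3a1 at 22.8 ± 0.37 FPKM. Microglia and macrophages summed to 379 to 382 FPKM, with the complement genes C1qb and C1qa at 49.8 ± 1.32 and 48.3 ± 2.08 FPKM, Cx3cr1 at 12.9 ± 0.64 FPKM and Tmem119 at 3.21 ± 0.53 FPKM. Endothelium summed to 308 to 333 FPKM with 22 of 22 genes at 1 FPKM or more, led by the tight junction gene Cldn5 at 70.4, 80.8 and 80.3 FPKM, with Cdh5 at 14.1 ± 0.72 FPKM. Pericytes and smooth muscle summed to 95.4 to 96.5 FPKM, with Rgs5 at 17.3 ± 0.74 FPKM and the smooth muscle genes Myh11, Tagln and Cnn1 under 0.1 FPKM on average. The oligodendrocyte lineage summed to 204 to 214 FPKM, with the precursor genes Olig1 at 30.5 ± 3.48 FPKM and Pdgfra at 23.9 ± 0.63 FPKM above the myelin genes Mbp at 16.5 ± 0.13 FPKM and Mog at 0.63 ± 0.05 FPKM.

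**Figure D5:**
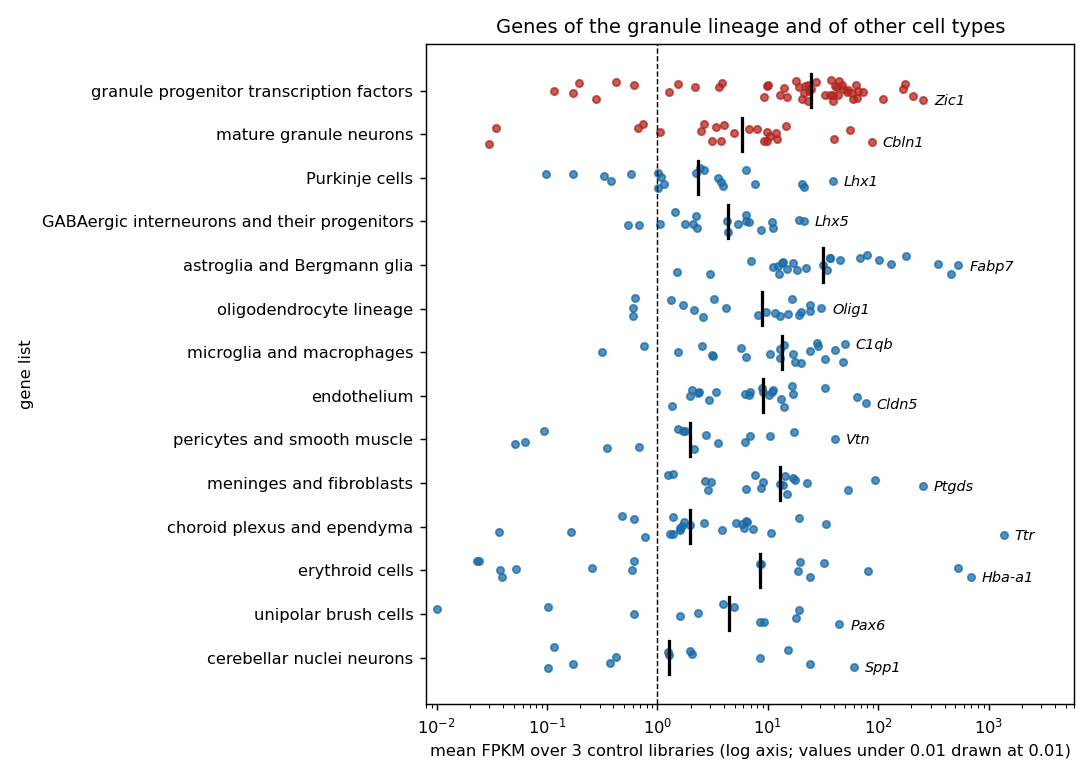
Mean FPKM over the 3 P3 control libraries of every gene in 2 granule lineage lists (red) and in 12 lists for other cell types (blue), on a log axis, with the median of each list as a black bar, its highest gene named and a dashed line at 1 FPKM. The astroglial median of 31.5 FPKM lies above that of the granule progenitor factors at 24.5 FPKM, and Ttr and Hba-a1 stand far to the right of the rest of their lists.

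The lists for other neurons of the cerebellum gave sums close to one another. Beside the counts at 1 FPKM given here, 66.3% of all protein-coding genes reached that level. Purkinje cell genes summed to 115 to 121 FPKM, and 12 of 20 reached 1 FPKM. Of that sum 32.8% was Lhx1 (39.1 ± 1.97 FPKM), a LIM homeodomain factor that is also on the granule lineage list, whereas the defining genes Calb1 and Pcp2 were at 2.36, 2.06 and 2.22 FPKM and at 0.42, 0.36 and 0.37 FPKM. GABAergic interneurons and their progenitors summed to 112 to 122 FPKM, with Pax2, the factor of newborn interneurons, at 8.68 ± 0.83 FPKM, Gad1 at 6.28 ± 0.36 FPKM and Gad2 at 1.05 ± 0.05 FPKM. The list for unipolar brush cells, which also come from the rhombic lip, summed to 111 to 116 FPKM, with 9 of 12 genes at 1 FPKM or more. Of the 12 genes 7 are also on the lineage lists, and 39.4% of the sum was Pax6. Eomes was at 9.16 ± 0.59 FPKM, Calb2 at 4.93 ± 0.58 FPKM and Sln, the lowest, at 0.0096 FPKM from 0, 0 and 2 reads. The list for neurons of the cerebellar nuclei summed to 114 to 118 FPKM, with 7 of 13 genes at 1 FPKM or more, and 51.9% of the sum was Spp1 at 60.0 ± 0.82 FPKM. Its factors Tbr1 and Lhx9 were the lowest, at 0.10 ± 0.03 and 0.11 ± 0.04 FPKM.

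Genes that mark sex were both present in each library. Xist, the RNA that coats the inactive X chromosome of females, was at 56.4, 50.2 and 54.5 FPKM, and the Y-linked Eif2s3y and Ddx3y were at 10.0, 8.46 and 9.93 FPKM and at 5.27, 4.92 and 5.64 FPKM. Markers of both sexes were thus in every library, and the number of animals behind each is not given in the sources used here. The median level of 399 X-linked protein-coding genes at 1 FPKM or more was 1.10 times that of 11279 autosomal ones.

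Immediate early genes, which neurons and dissociated cells switch on within minutes of a stimulus, were uneven. Of 24 listed 17 reached 1 FPKM in every library, a share near the 66.3% of all protein-coding genes. Fos was at 38.5, 41.5 and 39.5 FPKM, Jun at 39.2 ± 1.54 FPKM and Egr1 at 27.3, 28.5 and 30.1 FPKM. Npas4, which answers to synaptic activity, was at 0.34 ± 0.05 FPKM, Egr3 at 0.12 FPKM and Arc at 0.99 ± 0.14 FPKM. How the tissue was handled is not given in the sources used here, and its part in these levels was not tested.

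Named long non-coding RNAs ranged from under 1 FPKM to over 100 FPKM. Miat was at 56.3, 57.6 and 54.5 FPKM, Malat1, a nuclear RNA that is among the most abundant in many tissues, at 39.8, 34.1 and 33.7 FPKM, and Neat1, the scaffold of paraspeckles, at 0.40 ± 0.08 FPKM. The imprinted H19 was at 45.8, 39.2 and 45.4 FPKM, 16.3 ± 3.06 times the level of its neighbour Igf2 at 2.31, 2.71 and 3.11 FPKM, while the imprinted Meg3 was at 5.52 ± 0.19 FPKM. The most abundant row of the class was Gm42047 at 132 ± 5.72 FPKM. Host RNAs of microRNAs that neurons need were present, with Mir9-3hg at 22.3 ± 0.14 FPKM and Mir124a-1hg at 18.1 ± 1.32 FPKM.

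Rows for small RNAs carried signal that lay inside longer genes. Of 347 microRNA rows 39 reached 1 FPKM, 37 of them inside another gene and 28 on its strand, and of 231 snoRNA rows 70 did, 69 inside another gene and 63 on its strand. The highest microRNA row, Mir5125, was at 140, 130 and 160 FPKM from 451, 332 and 668 reads, inside Srrm2 at 58.9 ± 1.35 FPKM. Mir186 was at 12.5, 22.7 and 28.2 FPKM from only 36, 52 and 106 reads, inside Zranb2. Mir7-1 was at 17.6 ± 2.30 FPKM inside Hnrnpk, a gene at 214 ± 6.77 FPKM. The microRNA rows have a median length of 85 bases, and libraries of fragmented poly(A) RNA do not measure the mature RNAs. For Mir186, Mir7-1 and the host RNA Mir9-3hg named above, 1 mature RNA each is shown (RefSeq, GRCm38.p6) with the seed, bases 2 to 8, in capitals. That of Mir5125 is not shown.
miR-9-5p, chr7:79505279-79505301, plus strand: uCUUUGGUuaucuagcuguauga
miR-186-5p, chr3:157544285-157544306, plus strand: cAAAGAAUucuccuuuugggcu
miR-7a-5p, chr13:58392841-58392863, minus strand: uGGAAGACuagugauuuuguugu
The 3 seeds differ from each other.

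Variation among the 3 libraries was measured by the range of each gene. Over 8183 genes averaging 5 FPKM or more the median coefficient of variation was 4.62%, and 18 genes had a range of 2-fold or more on the FPKM + 1 scale. Only 1 of the 18 was protein-coding, mt-Atp8, at 19.1, 26.4 and 66.0 FPKM, a gene of 204 bases. The others were 4 processed, 1 transcribed processed and 1 unprocessed pseudogene, 3 long non-coding RNAs, 3 microRNAs, 3 snoRNAs and 2 snRNAs, and 9 of the 18 were shorter than 200 bases, with a median length of 154 bases against 4209 for all genes compared. The widest range was that of Rps18-ps3, a processed pseudogene of a ribosomal protein gene, at 14.5, 9.17 and 2.77 FPKM, and 10 of the 18 were highest in control 3. The count was 5 without control 1, 13 without control 2 and 3 without control 3, so that controls 1 and 3 each carried most of it. It also depended on the filter, with 102 genes at a mean of 1 FPKM or more, 205 with no filter and 3 at 20 FPKM or more, and it was 131 after conversion to TPM, which also changes what the filter and pseudocount stand for. With library sums set equal on the FPKM scale, an alternative chosen after seeing the data, it was again 18.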

How the data were processed

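RNA was selected with oligo(dT), fragmented, made into dUTP-marked libraries and read as pairs on a NovaSeq, per the labels' protocols. The deposited table gives FPKM per gene and library beside a gene length. In the submitters' processing notes stand, without roles, cutadapt 1.9, HISAT2 2.2.1, StringTie 2.1.6, DESeq2, edgeR and the build mm10. Neither the annotation nor whether counting used strand is given there, and overlapping or antisense genes may share reads. The length column is headed as coding length but holds longer values, with a median of 4072 bases for protein-coding genes. Multiplying the authors' FPKM by this length gave whole reads, 40714149, 32278245 and 52961445 per library. Of small counts under 30 reads, 60.3% to 62.6% were even, and whether the mates of a pair were counted singly was not tested.

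Groups were taken from the labels. The other 3 sample columns of the table were not used, no groups were compared, and no p-value was computed. Levels are mean ± SD over 3 libraries, a gene counts as detected at 1 FPKM in every library, and ranges used log2(FPKM + 1) among genes averaging 5 FPKM or more. Of 794 entries in 78 lists 768 matched a symbol, and 23 symbols occur more than once. The members and lists were chosen with earlier results of these data known. The genes open to naming were the listed genes, the 40 most abundant genes, the 5 most abundant of each larger Biotype class, the 30 highest transcription factor genes and the 20 genes of widest range. Rpl38, Rps29, Rpl41, Rps14, Rpl35, Rpl24, Rps10, Rpl13a, Hnrnpll and the mitochondrial copies beyond these were named after their values were seen. Sequences came from GENCODE M21 and RefSeq (both GRCm38), using the principal transcript, then the longest coding sequence. Python 3.11.15, pandas 2.3.3, numpy 2.4.6 and matplotlib 3.10.9 were used, and the range rule was tested on simulated data. Alternatives changed the threshold, the pseudocount, the scaling, the unit, the filter and the libraries used.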

Additional observations from a re-analysis of the deposited data

How the results depend on the processing

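Without control 1, 2 or 3 in turn, 12999 to 13083 genes were detected, the 100 most abundant genes held 24.5% to 25.1% of FPKM, protein-coding genes 95.1% to 95.2%, the lowest marker percentile was 95.2 to 95.3, 43 to 45 families had a member over 50%, 183 to 184 markers of other cell types were detected, and 3 to 13 genes had a 2-fold range. Detected genes numbered 7900 at 5 FPKM and 22282 above 0 in all libraries. The 100 most abundant genes held 14.7% of reads, and 20.05% of FPKM without mitochondrially encoded genes; protein-coding genes held 98.1% of reads. The lowest marker stood at the 92.0 percentile among protein-coding genes and at 89.0 among genes of at least 1 FPKM. A threshold of 75% left 15 families, and one of 5 FPKM left 121 markers of other cell types. The count of genes with a 2-fold range depended most on the setting: 102 at a mean of at least 1 FPKM, 3 at 20 FPKM, 205 with no filter, 131 as TPM, where the same filter and pseudocount stand for lower FPKM, 18 with library sums set equal on the FPKM scale, 1 among protein-coding genes, and 9 without genes under 200 bases. The equal sums and the length limit were chosen after seeing the data. Single levels moved most for mt-Atp8, by 38.7% without control 3; with 3 libraries, leaving out 1 cannot move a mean by 1 SD, so such moves do not show stability. By reads in place of FPKM, the leading share moved by 1 SD or more in 48 of 52 families. Depth limits genes near the counting floor. No paired analysis was possible because the values come from 1 group and from no test.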

Other observations

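Long genes had lower FPKM than short ones in these libraries, and the part of the deposited length in this was not tested. Among protein-coding genes at 1 FPKM or more, the median level was 12.1 FPKM for 2722 genes that span under 10 kb and was lower in each wider class, at 4.09 FPKM for 520 genes of 200 to under 500 kb. Keratins, the filaments of epithelia, reached 1 FPKM in 2 of 28 genes, with Krt10 the highest at 4.34 FPKM. Of 68 protocadherins, adhesion proteins that differ between single neurons, 30 reached 1 FPKM, with Pcdhgc3 at 13.7 FPKM. Of 40 proteasome subunits 36 did, led by Psma6 at 148 FPKM, and Psmb11, a subunit of the thymus, was at 0.021 FPKM.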
